A study of Mus musculus with 20 samples.

Results

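Time point 1 is the first numbered sampling of an experiment in which Hepa1-6 cells, a mouse hepatoma line, met changing glutamine. It was measured on 2 of the 20 two-colour arrays of the series. Each array set RNA of glutamine-varied flasks, labelled with Cy5, against RNA of control flasks, labelled with Cy3. Glutamine-varied flasks were switched between 0 and 4 mM glutamine at medium exchanges at the start and at 24, 48 and 72 h of a 96 h culture. Control flasks had the same exchanges but stayed at 4 mM glutamine, and all flasks held 25 mM glucose. The comparison set of other samplings was the 12 arrays of time points 2, 3, 4, 7, 8 and 9, grown and labelled in the same way. At which hour time point 1 was taken and how much glutamine its flask then held is not in the labels, and they do not say whether the second array, marked r, was another flask or a repeat hybridisation. The p-values below may therefore measure technical spread only. Members were the genes with a value on both arrays of time point 1, after centring each array on its median and averaging probes of a gene. These were 5288 of the 11771 genes with a value on at least 1 of the 20 arrays, of which 4686 were named genes and 602 unnamed probes.

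Glutamine supplies cultured cells with nitrogen for nucleotides and amino acids and, through glutamate, with carbon for the tricarboxylic acid cycle. When amino acids run short, uncharged tRNA activates the kinase GCN2, translation is slowed, and the transcription factor ATF4 raises genes for amino acid synthesis, uptake and stress defence. Liver-derived cells also hold enzymes that make and break down glutamine.

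A value is a log2 ratio, likely glutamine-varied over constant glutamine, because experimental RNA is the first channel in the labels. Base 2 is an assumption. With no dye swap, a gene's lasting preference for 1 dye and a true difference of the RNAs cannot be told apart in a single time point. Such a bias cancels where time point 1 is set against the other time points. The 2 arrays gave 6974 and 6224 values, or 40.4% and 36.0% of the probes, and their medians as deposited were 0.18 and 0.32. On 1 time point 4 array, the control channel is labelled as cells lacking glutamine. This was handled as a slip, and an alternative fit without time point 4 is given with the other settings. Values also moved with probe number: medians of the 32 blocks of 540 consecutive probes ran from -0.34 to 0.32 on the first array and from -0.23 to 0.27 on the second. Such blocks held 29.3% and 13.4% of the variance of the arrays.

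Both arrays of time point 1 were moderately alike. Across the 5288 genes, Pearson's r was 0.516 and Spearman's rho 0.478, where genes are not independent replicates. The pairs of the 6 other time points had r between 0.520 and 0.689, so this pair had the lowest r of the 7. The sign was shared by 3388 genes (64.1%), with 1888 above 0 on both arrays and 1500 below 0 on both. At a size of 0.5 on both arrays, 77 genes (1.46%) lay above and 109 (2.06%) below, and 1 gene had that size with opposite signs. None of the genes reached 1 on both arrays, while 5 lay at or below -1 on both. The SD across genes was 0.339 on the first array and 0.329 on the second, and the SD of their difference was 0.328. A difference between the arrays of a single gene was thus as wide as the spread of the genes themselves. Each array of time point 1 had a higher r with some arrays of other time points than the 0.516 of the pair. The first reached 0.582 with the first array of time point 2, and the second 0.686 with the second array of time point 4. The likeness of the pair was thus not particular to time point 1.

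**Figure D1:**
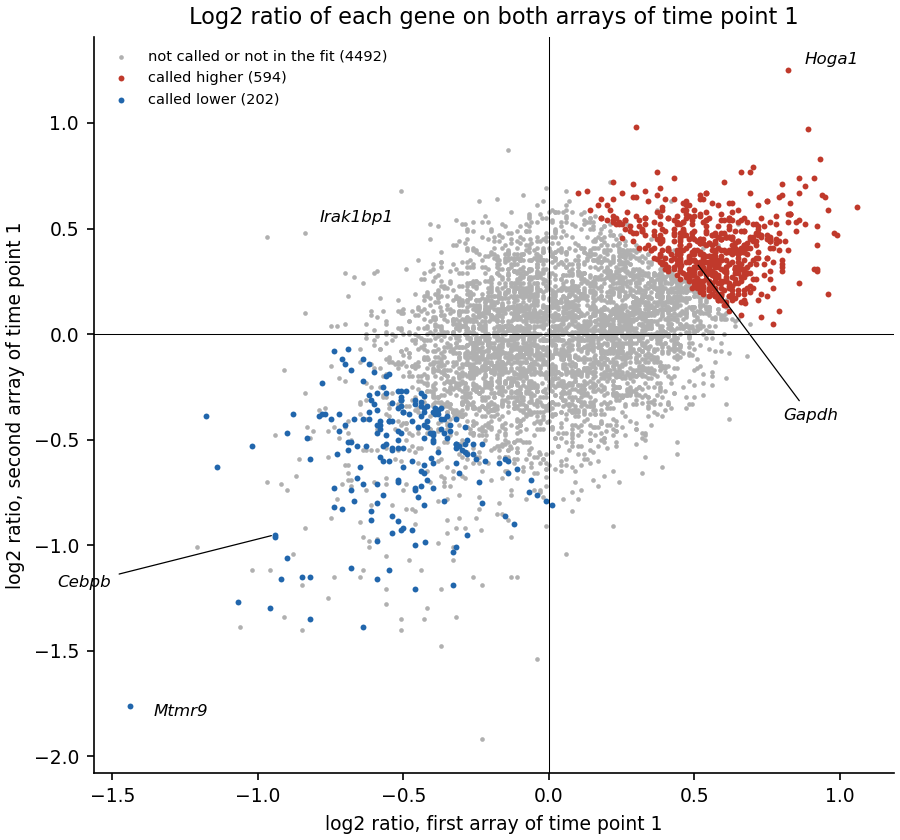
Log2 ratio of each of the 5288 genes on the first array (horizontal axis) and second array (vertical axis) of time point 1; red points are genes called higher against 0, blue points genes called lower, grey points the others. Points run along the diagonal with a wide scatter, Hoga1 at the upper right and Mtmr9 at the lower left.

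Against 0, the median probe of the array, more transcripts stood above than below in the glutamine-varied flasks. limma was fitted to the 14 arrays of 7 time points, which share 1 estimate of the spread. Pairs of arrays were not equally close, by the SD of their difference over all genes with both values. The pair studied here had 0.328. Among the other pairs of the fit only that of time point 7 was wider (0.336), and the rest ran from 0.254 to 0.298. A shared spread may thus be too narrow for time point 1, and the SEs and p-values given for it too small. The fit took the 3778 members that had a value on 11 or more of the 14 arrays and at every time point. With an adjusted p under 0.05 counted as called, 594 were higher (15.7%) and 202 lower (5.35%). All 594 higher genes and 201 of the 202 lower genes had 1 sign on both arrays. That is largely fixed by the selection, since genes were called on the mean of the same arrays. Called means were at least 0.3525 in size among higher genes and 0.36 among lower genes. The SD of the difference between the arrays was 0.328. The shared sign is thus no separate evidence that the arrays were alike. Sizes were modest: the median was 0.465 among genes called higher and 0.495 among those called lower. The other 1510 members could not be fitted and are described without a test. The balance of directions depended on the zero point, since the median of the fitted genes was 0.095 and not 0. Centred on these genes, 260 were higher and 338 lower, and with values as deposited, 2037 were higher and 60 lower. The calls also rested on both arrays: without the first array of time point 1, 43 genes were higher and 71 lower, and without the second, 426 and 107. In 5 ways of centring or scaling the arrays, 259 genes were higher and 93 lower every time, and the genes named as robust to scaling below are among these.

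The highest gene was Hoga1, the mitochondrial aldolase that ends hydroxyproline breakdown, at 0.82 and 1.25 on the 2 arrays. Its fitted value was 1.03 ± 0.14 (SE), with an adjusted p of 6.7e-08, and both arrays lay above its mean of 0.45 over the other time points. Nfia, a transcription factor of the nuclear factor I family, followed at 0.89 and 0.97 (adjusted p = 5.8e-07). Nfia was nearly as high later, with time point means between 0.54 and 0.89. Mff, a receptor that draws the fission machinery to mitochondria, stood at 1.06 and 0.60, and its 2 arrays differed by more than most. Sema6c, a membrane-bound semaphorin, had 0.91 and 0.74 (adjusted p = 1.9e-05 against 0). Its mean was 0.40 at the other time points, and the difference was not called (adjusted p = 0.15). Gsdma2, a gasdermin, had 0.95 and 0.65, and the membrane ubiquitin ligase Marchf3 had 0.94 and 0.66. Copb2, a subunit of the COPI vesicle coat, had 0.96 and 0.59. Aif1, a calcium-binding actin partner of macrophages, had 0.86 and 0.67. Msrb1, a selenoprotein that repairs oxidised methionine, had 0.98 and 0.48. The transcribed pseudogene 1810014B01Rik, 6530415H11Rik and 1700123I01Rik lay between 0.66 and 0.88 on both arrays, as did the unnamed probe 13913, while the unnamed probe 9434 had 0.93 and 0.83. All of these were robust to scaling.

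The lowest gene was Mtmr9, a myotubularin relative that lacks phosphatase activity and partners active members, at -1.44 and -1.76. Its fitted value of -1.60 ± 0.16 (SE) had an adjusted p of 1.3e-12. Time point 1 did not stand apart here, because Mtmr9 averaged between -2.51 and -0.435 at the other time points. Ccdc125, a coiled-coil protein, had -1.07 and -1.27. Map2k6, the kinase that activates p38, had -0.96 and -1.30 at time point 1 (adjusted p = 1.7e-07 against 0). Its means lay between -1.78 and 0.06 later, and its difference from the other time points was not called (adjusted p = 0.15). The orphan receptor Gpr153 had -0.92 and -1.16, and Ssbp2, a DNA-binding adaptor of transcription complexes, had -0.64 and -1.39. Copz2, the COPI zeta subunit, had -0.85 and -1.15, so that 2 subunits of the same coat, Copz2 and Copb2, lay on opposite sides of 0. Pacc1, a proton-activated chloride channel, had -0.82 and -1.15, and the sperm protein Acrbp had -0.90 and -1.06. Nab2, a corepressor of EGR transcription factors, had -0.94 and -0.96. Bcl7b, a subunit of SWI/SNF chromatin remodellers, had -1.14 and -0.63, and Spats2 had -0.68 and -1.11. The gene 1700056E22Rik had -0.55 and -1.12, and the unnamed probe 15111 had -0.82 and -1.35. Mcts2 had -0.59 and -1.16, and its close relative Mcts1 had -0.91 and -1.34 but could not be fitted. Sequences of these relatives are alike, so a spot may have read both. Each fitted gene of this group was robust to scaling.

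**Figure D2:**
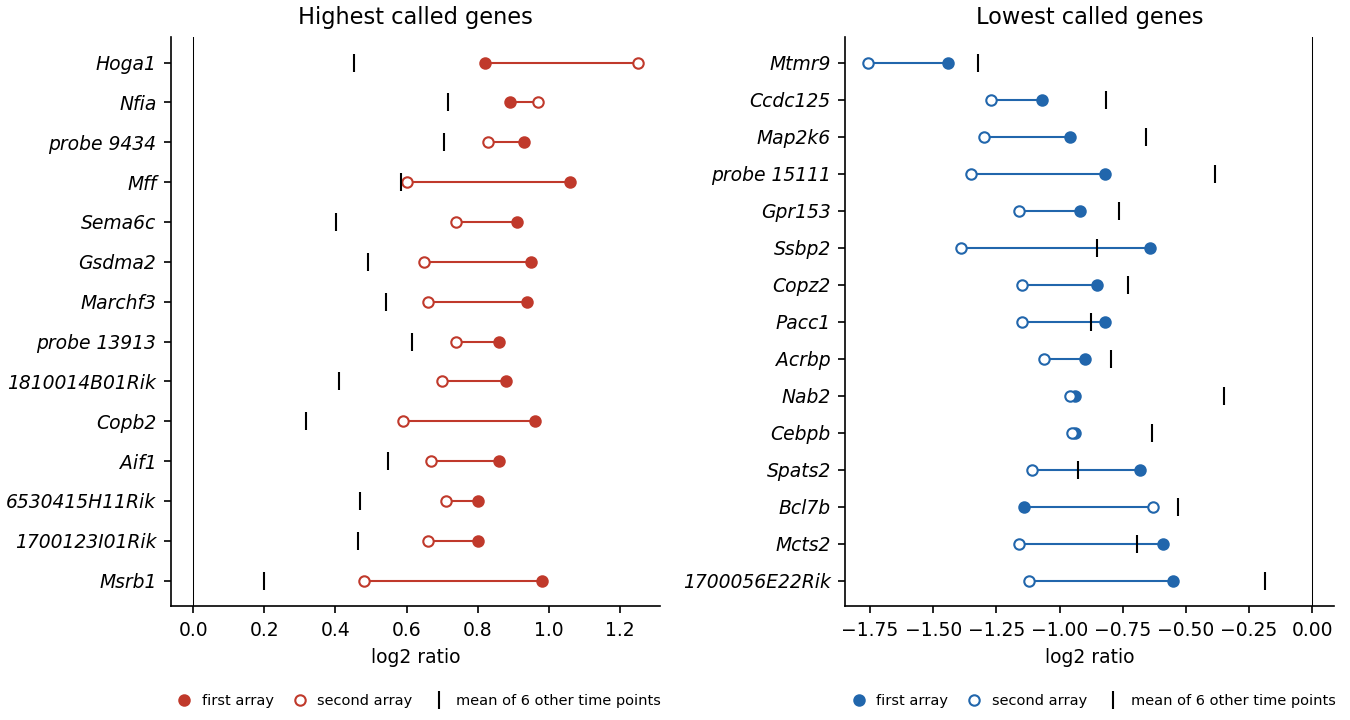
Log2 ratio (horizontal axis) on the first array (filled) and second array (open) of time point 1 for the highest and lowest called genes, with the mean of the 6 other time points as a bar. Most bars lie on the same side of 0 as the points; Hoga1 and Nab2 are among those whose bar lies far from both arrays.

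Among members that could not be fitted, the lowest with like values on both arrays were Olig1 (-1.06 and -1.39), a transcription factor of oligodendrocytes, and Fam20c (-1.21 and -1.01), a kinase of secreted proteins. Col15a1, a basement membrane collagen, had -0.96 and -1.12, and Fosb, an AP-1 subunit, had -0.85 and -1.19. The highest were smaller in size: Smim23 had 0.65 and 0.52, the receptor kinase Grk5 0.61 and 0.46, and the nucleolar protein Ncl 0.58 and 0.42. The median of these 1510 genes was -0.11. Among fitted genes the arrays disagreed most for Irak1bp1 (-0.84 and 0.48), Cacng5 (0.22 and -0.91) and Ggps1 (0.39 and -0.63), and none of these was called.

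Of the ATF4 target list, 10 of the 36 genes with a probe were fitted. Of these, 1 was higher and 3 lower, against 15.7% higher and 5.35% lower over all fitted genes, and their median was -0.13, against 0.095. Sesn2, a stress protein that restrains mTORC1, had 0.49 and 0.46 (0.475 ± 0.14, SE; adjusted p = 0.0080) and was robust to scaling. It did not stand out in time, with means between 0.22 and 0.53 at the other time points. Cebpb, the C/EBP-family factor that pairs with ATF4, had -0.94 and -0.95 (adjusted p = 6.0e-06). Slc6a9, a glycine transporter, had -0.15 and -0.86, and the pro-apoptotic gene Bbc3 had -0.31 and -0.53 and lost its call when probe blocks were centred (adjusted p = 0.070). Ddit3, the classical stress factor CHOP, had 0.33 and 0.06 and was not called (adjusted p = 0.34). Asns, Atf4 and Trib3, core members of the response, gave no value on either array of time point 1.

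Genes that handle glutamine itself gave few values. None of the 5 fitted genes of glutamine and glutamate metabolism was called, and their median was -0.105. Phgdh, the first enzyme of serine synthesis, had -0.29 and -0.30 (adjusted p = 0.11). Glul, glutamine synthetase, had no value on either array. Of the 8 fitted amino acid transporters, 0 were higher and 1 lower (12.5%), the Slc6a9 already given. Over all fitted genes, 15.7% were higher and 5.35% lower. Slc7a5, the large neutral amino acid carrier that exchanges glutamine, had 0.19 and 0.39 (adjusted p = 0.11). Slc38a2, the starvation-inducible glutamine carrier, had -0.26 on the first array only, and Slc1a5, the main glutamine carrier of many tumour lines, had -0.54 on the second only.

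The windows of 250 bases before the annotated starts of Sesn2 and Cebpb are shown because these genes of 1 response lay on opposite sides of 0, together with that of Gapdh, the gene that differed most from the other time points. They come from RefSeq on build GRCm38.p6, 5′ to 3′ on the strand of the gene, with matched motifs in capitals.
Sesn2, chr4:132510457-132510706, minus strand: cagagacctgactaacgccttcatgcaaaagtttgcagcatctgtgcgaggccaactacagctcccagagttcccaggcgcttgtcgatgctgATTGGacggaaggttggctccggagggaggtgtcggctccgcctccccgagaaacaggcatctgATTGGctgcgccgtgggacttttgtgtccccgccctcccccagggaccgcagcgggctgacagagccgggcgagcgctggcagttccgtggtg
Cebpb, chr2:167688665-167688914, plus strand: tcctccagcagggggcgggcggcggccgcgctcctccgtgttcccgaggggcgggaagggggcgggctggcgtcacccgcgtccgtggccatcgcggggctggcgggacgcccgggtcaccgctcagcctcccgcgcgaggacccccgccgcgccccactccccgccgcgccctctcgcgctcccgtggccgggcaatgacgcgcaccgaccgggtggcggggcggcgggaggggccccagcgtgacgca
Gapdh, chr6:125165774-125166023, minus strand: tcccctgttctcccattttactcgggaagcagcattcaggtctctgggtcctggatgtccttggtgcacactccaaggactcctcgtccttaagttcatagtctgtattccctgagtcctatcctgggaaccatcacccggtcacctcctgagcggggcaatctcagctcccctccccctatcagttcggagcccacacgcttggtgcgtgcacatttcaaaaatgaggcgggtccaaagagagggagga
Both strands were searched for 5 motifs: TGATGNAA, the element bound by ATF4 with C/EBP proteins, the E-box CACGTG, the AP-1 site TGANTCA, the TATA box TATAAA and the CCAAT box. The Sesn2 window holds 2 CCAAT boxes, read as ATTGG on this strand, and the other windows hold none of the motifs. Of all 32851 such windows, 33.8% hold CCAAT, 3.45% TGATGNAA, 6.02% the E-box, 6.75% the AP-1 site and 12.4% the TATA box. TGATGNAA stood in 2.42% of the 495 windows of genes called higher at time point 1 and in 0.556% of the 180 windows of genes called lower. These shares are descriptions without a test.

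Of 13 fitted glycolysis genes, 2 were higher and 2 lower, or 15.4% each way, with a median of -0.01. Over all fitted genes the shares were 15.7% and 5.35%. Aldoa, which splits fructose bisphosphate, had 0.50 and 0.56 (adjusted p = 0.0029), and Gapdh, the next enzyme, had 0.50 and 0.34 (adjusted p = 0.024), a call lost when arrays were centred on the fitted genes (adjusted p = 0.12). Pgam1, a mutase further down the pathway, had -0.42 and -0.44, and Pklr, the liver pyruvate kinase, had -0.11 and -0.64. With probe blocks centred Pgam1 was at -0.23 and no longer called (adjusted p = 0.23). Ldha, which makes lactate, had -0.096 and -0.30 over its 17 probes and was not called. Of 14 tricarboxylic acid cycle genes, 1 was higher: Sucla2, a subunit of succinyl-CoA synthetase, at 0.62 and 0.33. In the respiratory chain and ATP synthase, 5 of 33 were higher (15.2%) and 3 lower (9.09%). The complex I subunit Ndufa5 had 0.73 and 0.46, and Cox8b of cytochrome oxidase had 0.65 and 0.44, whereas Ndufb8, also of complex I, had -0.52 and -0.50 and lost its call with probe blocks centred (adjusted p = 0.15). None of the 7 fitted genes of fatty acid oxidation was called, with a median of -0.09. The triglyceride lipase relatives Pnpla3 (0.63 and 0.62) and Pnpla2 (0.55 and 0.22) were higher, the second not when arrays were centred on the fitted genes (adjusted p = 0.16).

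Of 43 cytosolic ribosomal protein genes, 9 were higher and 0 lower, or 20.9% and 0.0% against 15.7% and 5.35% of all fitted genes, with a median of 0.225. Rpl36 had 0.67 and 0.49, Rps23 0.48 and 0.56, and Rps12 0.44 and 0.52. Centred on the fitted genes, 3 were higher and 1 lower, so the direction of this group depended on the zero point. Of 22 translation factors and tRNA synthetases, 5 were higher (22.7%) and 1 lower (4.55%), with a median of 0.26. Eef1a1, the elongation factor that brings tRNA to the ribosome, had 0.85 and 0.49 at time point 1 (adjusted p = 0.00089 against 0). Its means lay between -0.105 and 0.32 later, and its difference from the other time points was not called (adjusted p = 0.070). Eif2b1, a subunit of the exchange factor of eIF2, had 0.65 and 0.59, and Eif2ak1, a kinase of eIF2 that senses haem, had 0.63 and 0.58. Ribosomal and Eef1a1 spots can also read processed copies of these genes.

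Of 16 chaperones of the cytosol, 5 were higher (31.2%) and 0 lower, against 15.7% and 5.35% of all fitted genes, with a median of 0.28. Dnajb6, a J-domain co-chaperone, had 0.76 and 0.41 and was robust to scaling. Cct3, of the chaperonin that folds actin and tubulin, had 0.65 and 0.32, Hspa2, an HSP70, 0.70 and 0.22, and Stip1, which links HSP70 and HSP90, 0.52 and 0.34. These last genes lost their calls when arrays were centred on the fitted genes, which left 1 of 16. Stip1 also lost its call with probe blocks centred (adjusted p = 0.055). In the endoplasmic reticulum, 2 of 10 were higher and 2 lower. P4hb, a protein disulphide isomerase, had -0.57 and -0.76 (adjusted p = 0.00032), and Ern2, a stress sensor of the IRE1 type, had 0.73 and 0.47. Hspa5, the luminal HSP70 BiP, had 0.49 and -0.10, so its arrays lay on opposite sides of 0.

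Protein breakdown had 2 of 28 proteasome and ubiquitin genes higher (7.14%) and 3 lower (10.7%). Over all fitted genes, these shares were 15.7% and 5.35%. The ubiquitin-conjugating enzyme Ube2d1 had -0.46 and -1.21 (adjusted p = 4.7e-05). Psmd11, a lid subunit of the proteasome, had -0.425 and -0.985, whereas Psmc1, an ATPase of its base, had 0.69 and 0.45. Of 21 lysosome and autophagy genes, 2 were higher (9.52%) and 1 lower (4.76%). The autophagosome marker Map1lc3b had -0.37 and -0.45, a call lost with probe blocks centred (adjusted p = 0.105), and Atg2b, which feeds lipid to the growing membrane, had 0.61 and 0.39.

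Of 46 fitted genes of actin, tubulin, keratin and myosin, 13 were higher (28.3%) and 3 lower (6.52%), against 15.7% and 5.35% of all fitted genes. Tuba4a and Myo15 both had 0.83 and 0.57 (adjusted p = 0.00017 each), and Arpc5, of the actin-branching ARP2/3 complex, had 0.66 and 0.31. With probe blocks centred, 10 were higher and 2 lower, and centred on the fitted genes, 5 and 5. Vesicle traffic had 12 of 61 higher and 2 lower, near the background of all genes. The small GTPases Rab11b (0.88 and 0.52) and Rab8a (0.69 and 0.67) of recycling and secretion were among them. Integrins, cadherins, collagens and laminins had 5 of 29 higher and 3 lower. Itga8 had 0.79 and 0.40, whereas Itga5, the fibronectin receptor chain, had -0.69 and -0.55 and its partner Itgb1 had -0.72 and -0.38. The calls of Itga5 and Itgb1 were lost with probe blocks centred (adjusted p = 0.089 and 0.064).

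In signalling, 4 of 17 MAP kinase genes were higher (23.5%) and 1, the Map2k6 given above, lower (5.88%). Over all fitted genes, 15.7% were higher and 5.35% lower. Map3k5, a stress-activated kinase upstream of p38, had 0.67 and 0.28, and Map3k7 had 0.58 and 0.33, the second losing its call when arrays were centred on the fitted genes (adjusted p = 0.053). Among immediate early genes Jun, an AP-1 subunit, had -0.77 and -0.38 (adjusted p = 0.0017), and Gadd45b, a stress-induced regulator of MAP kinases, had 0.72 and 0.47 (adjusted p = 0.0010). In the Notch pathway, the target Hes1 had 0.67 and 0.31 and the ligand Jag2 0.55 and 0.21, whereas the receptor Notch3 had -0.60 and -0.33. The mean of Notch3 over the other time points was -0.85, but the difference of 0.38 was not called (adjusted p = 0.18). With probe blocks centred, the calls of Notch3 (-0.28, adjusted p = 0.069) and Jag2 (adjusted p = 0.097) were lost, and that of Jag2 also when arrays were centred on the fitted genes (adjusted p = 0.15). Of 14 acute phase and cytokine genes, 0 were higher and 3 lower (21.4%). These were the chemokines Cxcl16 (-0.74 and -0.73), Cxcl14 (-0.64 and -0.71) and Ccl19 (-0.49 and -0.27). Ccl19 was at -0.095 and not called with probe blocks centred (adjusted p = 0.59). The histone demethylase Kdm5c had -0.67 and -0.79, and its Y-linked relative Kdm5d had 0.69 and 0.33. Of 40 splicing and RNA-binding factors, 7 were higher (17.5%) and 0 lower, the higher share being near that of all fitted genes.

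Cytochrome P450 and conjugation enzymes had 6 of 35 higher and 1 lower, among them the carboxylesterase Ces1g (0.47 and 0.55) and Cyp2c39 (0.49 and 0.48). Histones and chromatin regulators had 5 of 24 higher and 1 lower, and mitochondrial ribosomal proteins 3 of 20 higher and 1 lower. Cell cycle and DNA replication had 2 of 33 higher (6.06%) and 3 lower (9.09%), against 15.7% and 5.35% of all fitted genes. Ndc80, of the kinetochore, had 0.70 and 0.52, and Cit, a kinase of cell division, had -0.59 and -0.71. Glutathione and antioxidant enzymes had 1 of 18 higher (5.56%), the glutathione transferase Gstt1 at 0.61 and 0.32. Gys2, the liver glycogen synthase, had 0.20 and 0.54 and was the only call among 6 genes of gluconeogenesis and the pentose phosphate pathway. Among 7 interferon response and MHC genes, 1 was lower, Oasl2 at -0.64 and -0.22. With probe blocks centred, the calls of Gstt1 (adjusted p = 0.12), Gys2 (adjusted p = 0.068) and Oasl2 (adjusted p = 0.099) were lost. Gstt1 (adjusted p = 0.056) and Gys2 (adjusted p = 0.17) also lost theirs when arrays were centred on the fitted genes. Growth arrest and p53 targets had 2 of 5 higher and 1 lower. None of the 6 hypoxia-inducible genes, 4 genes of purine and pyrimidine synthesis, 2 of cholesterol synthesis or 2 of the circadian clock was called by limma.

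Of the liver markers, 7 of the 15 hepatocyte markers with a probe had a value on both arrays, and Alb, the defining plasma protein, was among them at -0.09 and -0.65. None of the 6 that were fitted was called, with a median of 0.075. A ratio gives no level, so these values do not measure how much of the marker was there. Of 15 fitted genes of secreted liver plasma proteins, 1 was higher (6.67%), Apoc3 at 0.62 and 0.33. Over all fitted genes, 15.7% were higher and 5.35% lower. Of 6 stellate cell and fibroblast markers, 2 were higher, Dcn (0.57 and 0.47) and Col1a2 (0.45 and 0.30), the second not with probe blocks centred (adjusted p = 0.17) or with arrays centred on the fitted genes (adjusted p = 0.16). Of 2 macrophage and leukocyte markers, Aif1 was higher, and of 4 markers of endothelium and bile ducts 0 were called. The labels name a single cell line. Whether a ratio came from the number of cells that held a transcript or from its amount per cell cannot be told apart.

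**Figure D3:**
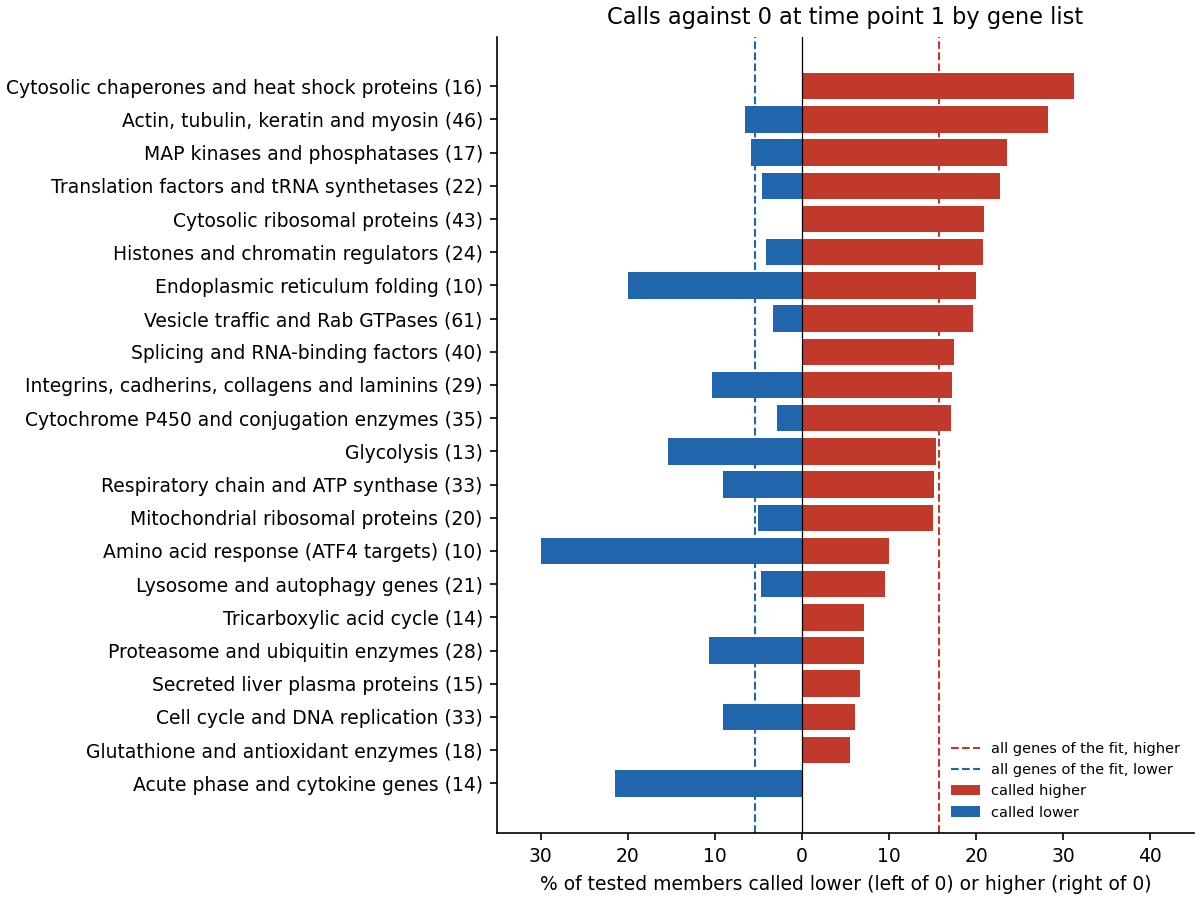
Share of the fitted members (% on the horizontal axis) of each gene list with 10 or more of them called lower (left of 0) or higher (right of 0) at time point 1, with dashed lines at the shares over all 3778 fitted genes. Chaperones and cytoskeleton genes extend furthest to the right, amino acid response and cytokine genes furthest to the left; numbers in brackets are the fitted members.

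Set against the mean of the 6 other time points, fewer genes differed. The fit called 60 genes higher (1.59%) and 18 lower (0.476%) at time point 1. Of these, 28 and 14 were also among the 594 and 202 genes called against 0 in the same direction. By list, 0 of 16 chaperones, 0 of 17 MAP kinase genes and 0 of 10 ATF4 targets were called in this comparison. Cytoskeleton genes had 1 of 46 and cytosolic ribosomal genes 2 of 43 called, all higher. Acute phase and cytokine genes had 1 of 14 called each way. In 53 of the 60 and in all 18, time point 1 lay beyond the mean of every other time point. This largely follows from the selection, since the genes were called for their difference from the same 6 time points. These calls also needed both arrays: without the first array of time point 1, 0 genes were called in either direction (368 at an unadjusted p under 0.05), and without the second, 5 were higher and 0 lower. Without the second array of time point 2, 18 were higher and 7 lower, and without the first array of time point 8, 37 and 9. Scaling changed the balance: 12 were higher and 13 lower after quantile normalization, 27 and 16 when centred on the fitted genes, and 6 and 8 with values as deposited. With all 20 arrays in the fit, none was called by limma, where 264 genes had an unadjusted p under 0.05. The calls were also unevenly spread over the array: of the 54 higher genes with 1 probe, 11 (20.4%) lay in a single block of 540 probes that held 3.69% of the fitted genes with 1 probe. Centring the blocks left 37 higher and 7 lower, and of the original calls 28 and 5 remained.

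Gapdh, the glycolytic dehydrogenase widely used as a reference gene, differed most. It had 0.50 and 0.34 on the arrays of time point 1. At the other time points its means lay between -0.78 and -0.13, so time point 1 was the only one of the 7 with a mean above 0. The difference was 0.90 ± 0.15 (SE), with an adjusted p of 0.00026. Gapdh was spotted many times, and 16 of its 17 probes gave a value on each array of time point 1. All 16 were above 0 on both arrays, from 0.34 to 0.68 on the first and from 0.12 to 0.47 on the second. No other array of the fit had a mean over its Gapdh spots above 0.035. The difference lay between 0.82 and 0.98 under 33 alternatives and was called in 31 of them, with adjusted p from 3.4e-06 to 0.67. The exceptions were the fit of all 20 arrays and the one without the first array of time point 1 (adjusted p = 0.13). Aldoa, its neighbour in the pathway, did not share this pattern, with means between 0.155 and 0.465 at the other time points.

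**Figure D4:**
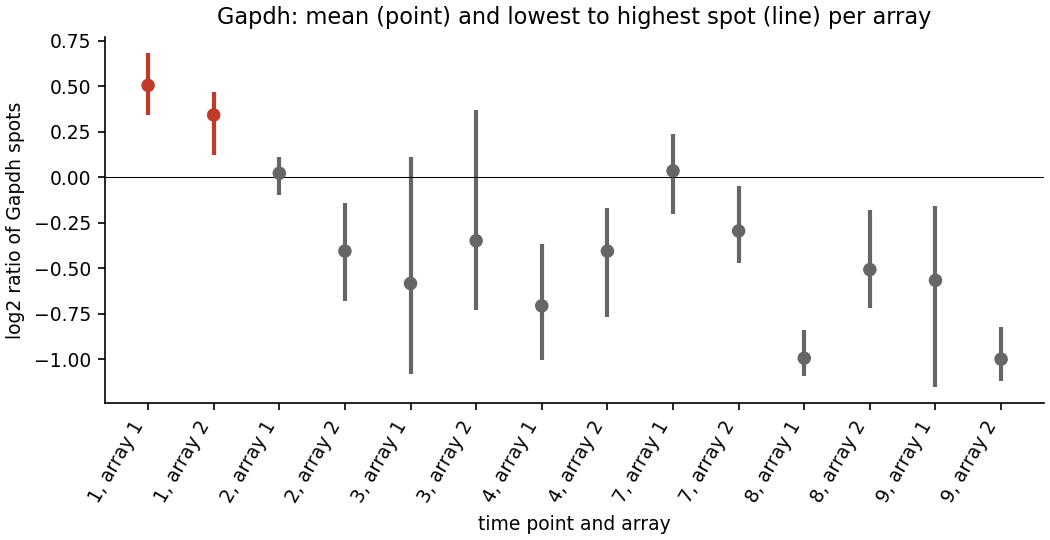
Log2 ratio of the Gapdh spots (vertical axis) on the 2 arrays of time point 1 (red) and the 12 arrays of the 6 other time points (grey); points are means over spots and lines run from the lowest to the highest spot. Every spot of time point 1 lies above 0, between 0.12 and 0.68, while the means of the other arrays lie at or below 0.035.

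In part of the higher genes time point 7, and not time point 1, stood apart from the rest. Without time point 7, 32 of the 60 higher genes and 16 of the 18 lower genes were still called. Phactr3, a regulator of protein phosphatase and actin, shows this: it had 0.42 and 0.16 at time point 1, and its mean was -2.63 at time point 7 but at most 0.165 at any other. Its difference of 0.79 was no longer called without time point 7 (adjusted p = 0.18). Prg2, an eosinophil granule protein, was alike, with 0.69 and 0.29 at time point 1 and a mean of -2.80 at time point 7. The mitochondrial ribosomal genes Mrpl24 (0.54 on both arrays) and Mrps10 (0.58 and 0.24) had time point 7 means of -2.24 and -2.23. Mroh4 and the unnamed probe 12059 followed the same course, with -1.93 and -2.47 there. None of these genes kept its call without time point 7.

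Leaving out each of the 6 other time points in turn, 18 higher and 10 lower genes were called every time. Beside Gapdh, the higher ones included 3000002C10Rik, a transcribed pseudogene, whose arrays at time point 1 differed widely (0.50 and -0.24) and whose other means lay between -1.17 and -0.265. Probe sequences were not used here, so whether its spot also read Gapdh RNA was not tested. Gpx3, the secreted glutathione peroxidase, had 0.12 and 0.29 at time point 1, against means between -1.05 and 0.02 elsewhere (difference 0.76 ± 0.15, SE; adjusted p = 0.0022). Its means were -0.07 and 0.02 at time points 2 and 3, and the low values, between -1.05 and -0.68, were at time points 4, 7, 8 and 9. Slc8a3, a sodium-calcium exchanger, had 0.02 and 0.16, against means between -1.12 and -0.14 (0.67 ± 0.15, SE; adjusted p = 0.010). For Gpx3 and Slc8a3, time point 1 itself was not called against 0 (adjusted p = 0.31 and 0.68), and most other means lay well below 0. Hoga1 had a difference of 0.58 ± 0.15 (SE), which was lost with probe blocks centred (adjusted p = 0.090). Ube2b, a ubiquitin-conjugating enzyme of DNA repair, had 0.31 and 0.41, against means between -0.69 and 0.025, and its call was lost in the same way (adjusted p = 0.13). The ribosomal gene Rpl3 had 0.45 and 0.44 at time point 1, against means between -0.375 and 0.11, and the bile duct keratin Krt19 had 0.18 and 0.42, against means between -0.45 and -0.10. With probe blocks centred, the difference calls of Krt19 (adjusted p = 0.11) and Rpl3 (adjusted p = 0.052) were lost too, and that of Krt19 also when arrays were centred on the fitted genes (adjusted p = 0.051).

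The genes lower at time point 1 mostly stood near or above 0 at all other time points. Cxcl14, a chemokine of epithelia, had -0.64 and -0.71 at time point 1, against means between -0.19 and 0.23 (difference -0.66 ± 0.15, SE; adjusted p = 0.010). The long non-coding RNA 4930470B04Rik had -0.47 and -0.93, against means between -0.22 and 0.29 (-0.75 ± 0.16, SE; adjusted p = 0.0041). Fam53b, a regulator of Wnt signalling known from fish, had -0.52 and -0.54, against means between -0.22 and 0.25. It was not among the 10 lower genes called with each other time point left out in turn (highest adjusted p = 0.056). Cxcl14, 4930470B04Rik, Fam53b and the unnamed probe 12940 were called in all 5 centred scalings, as were Gapdh, 3000002C10Rik, Phactr3, Gpx3 and Slc8a3 among the higher genes. Nab2 had means between -0.77 and -0.15 elsewhere, so its -0.94 and -0.96 extended a value already below 0. Usf1, a transcription factor of E-boxes, had -0.43 and -0.49, against means between 0.005 and 0.315. Atoh7, a neural factor of the retina, had -0.42 and -0.41, and Lamb2, a laminin chain, had -0.40 and -0.51. Sult1e1, the oestrogen sulphotransferase, had -0.11 and -0.23 at time point 1, against means between 0.26 and 0.805. With probe blocks centred, the calls of Nab2, Usf1, Atoh7, Lamb2 and Sult1e1 were lost, at adjusted p of 0.059, 0.11, 0.084, 0.098 and 0.052.

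**Figure D5:**
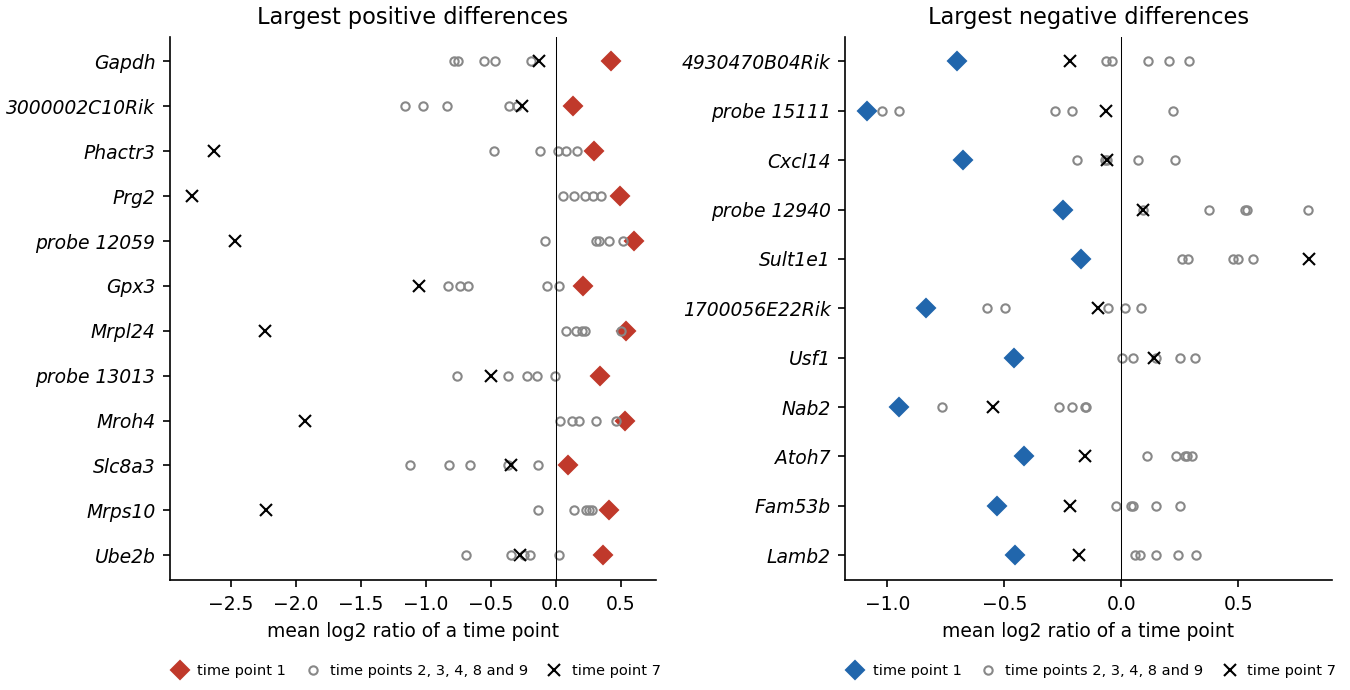
Mean log2 ratio (horizontal axis) of time point 1 (diamonds), time point 7 (crosses) and the 5 other time points (circles) for the genes with the largest positive (left) and negative (right) difference. Phactr3, Prg2, probe 12059, Mrpl24, Mroh4 and Mrps10 have a cross far to the left of every other mark, whereas Gapdh and the genes on the right do not.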

How the data were processed

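Per the labels, RNA of Hepa1-6 flasks was hybridised to spotted two-colour arrays. The authors deposited 1 value per probe and array, taken here as a log2 ratio. Background correction, normalization and the rule for blank spots are not given in the sources used here, and intensities were not used here. Of 14719 annotated probes, 14718 had 1 gene symbol and 1 had several, 14445 matched a RefSeq gene table (GRCm38.p6), and no symbol changed.

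Each array was centred on its median, and probes of a gene were averaged. limma 3.58.1 in R 4.3.3 was fitted to 14 arrays with a mean per time point. Time point 1 was tested against 0 and against the unweighted mean of time points 2, 3, 4, 7, 8 and 9, with Benjamini-Hochberg adjustment over all 3778 genes. Time points 5 and 11 have 1 array, and the arrays of time points 6 and 10 did not resemble each other (r = 0.048 and -0.0079). On simulated data, the test against 0 recovered 75% of changes of 0.5 and 100% of changes of 1, and the difference 58% and 100%. False calls were 15 and 8. The simulated noise was normal and independent between genes and arrays, with the fitted spreads. It held no shifts of probe blocks, no shift of the zero point and no dye bias, so these shares may not hold for the real arrays.

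Named genes were the 15 highest and lowest calls against 0 and the 12 highest and lowest differences, with at most 2 unnamed probes each way. To these came up to 4 called members of a list with 3 or more fitted genes (otherwise 2 by p), 16 genes of interest, the 3 whose arrays differed most, and 6 each way outside the fit. Names beyond this rule were chosen after their values were seen. Members and lists were chosen with earlier results of these data known. Alternatives covered arrays, centring, scaling, filters, probe summary, replicate block, robust fit and left-out arrays.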

Additional observations from a re-analysis of the deposited data

Results flagged for a closer look

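The difference between time point 1 and the mean of the 6 other time points was tested gene by gene, and the named genes that passed limma's adjusted p under 0.05 are listed with it on the log2 scale. Positive differences were 0.90 for Gapdh, 0.79 for 3000002C10Rik, 0.79 for Phactr3, 0.78 for Prg2, 0.77 for probe 12059 and 0.76 for Gpx3. They were 0.72 for Mrpl24, 0.67 for probe 13013, 0.67 for Mroh4, 0.67 for Slc8a3, 0.65 for Mrps10 and 0.65 for Ube2b. Negative differences were -0.75 for 4930470B04Rik, -0.70 for probe 15111, -0.66 for Cxcl14, -0.66 for probe 12940, -0.65 for Sult1e1 and -0.65 for 1700056E22Rik. They were -0.61 for Usf1, -0.60 for Nab2, -0.59 for Atoh7, -0.57 for Fam53b and -0.57 for Lamb2. Phactr3, Prg2, probe 12059, Mrpl24, Mroh4 and Mrps10 were not called without time point 7. With 2 arrays a time point, no array could be tested as standing apart within its group.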

How the results depend on the processing

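None of the called values of named genes changed sign. Genes called against 0, 594 higher and 202 lower as given, were 30 and 9 with all 20 arrays, 108 and 73 from the 2 arrays of time point 1 alone, 2037 and 60 with values as deposited, and 260 and 338 centred on the fitted genes. Among 2431 genes with a value on all 14 arrays, 617 were higher and 97 lower. Leaving out 1 array at a time gave 43 to 667 higher and 71 to 220 lower. For the difference, 60 higher and 18 lower as given became 0 and 0 with all 20 arrays, 6 and 8 as deposited, 37 and 7 with probe blocks centred, 30 and 10 with arrays scaled to 1 width, 12 and 13 after quantile normalization, and 27 and 16 centred on the fitted genes. With a value on all 14 arrays, 41 were higher and 9 lower. Without time point 4, 88 were higher and 30 lower, and without time point 7, 43 and 28. Leaving out 1 array gave 0 to 84 higher and 0 to 26 lower. The cause of these changes was not tested, beyond the fewer arrays or genes of some fits. Arrays of the same set, first or marked r, did not consistently deviate together. Over 21 pairs of time points the correlation of deviations ran from -0.43 to 0.33, with 6 above 0.1. Of the 14 arrays, 4 were closest to their own set. Only the mark in the titles was used, so a grouping of arrays that crosses it was not tested. With the set as a replicate block, 584 were higher and 199 lower against 0, and 60 and 18 in the difference. The correlation of the 2 arrays was 0.580 with blocks centred and 0.502 over the fitted genes. Centring on the fitted genes and leaving out time points other than 4 were chosen after seeing the data. Spots not well above background could not be told apart, since intensities were not used here.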
